A study of Homo sapiens with 4 samples.

Results

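The cytosolic ribosomal protein genes were examined in NB4-R4 cells given MK-8776 and in the same cells given DMSO. A gene was a member if the platform annotation gave its array feature exactly 1 symbol and that symbol named a protein of the large subunit (RPL and a number, or RPLP), a protein of the small subunit (RPS and a number) or RPSA. RPS27L and pseudogenes were left out. This gave 48 of the 17687 named genes measured, 29 of the large subunit and 19 of the small subunit, each with 1 feature. Other ribosomal protein genes, among them RPL5, RPLP0, RPSA and RPS27A, were not analysed here. The rule reads names, not measured values.

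The comparison was of 2 arrays of cells given MK-8776 at 4 µM with 2 arrays of cells given the vehicle DMSO, all taken at 96 h. MK-8776 blocks CHK1, a kinase that holds back the cell cycle when DNA replication stalls. NB4-R4 was derived from NB4, an acute promyelocytic leukaemia line, and does not respond to all-trans retinoic acid. Every array is thus of 1 subclone. Both groups were kept in RPMI medium with heat-inactivated serum, glutamine and antibiotics. By the labels the RNA is that of live cells, and they do not say whether the arrays of a group came from separate cultures, so p-values measure only the spread between these samples. Values are RMA expression on the log2 scale, and changes are MK-8776 minus DMSO on that scale, with the standard error (SE) and the Benjamini-Hochberg adjusted p of a limma fit over all 17687 genes. The fit drew the spread it used for each gene mostly from all genes (6.298 prior against 2 residual degrees of freedom). A gene rose or fell where the adjusted p was under 0.05. In bulk RNA, fewer cells of a type and less RNA per cell cannot be told apart. RMA sets each array's values against its other features, so a change of the cells' whole RNA content would not be seen.

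Each ribosome joins a small subunit, which reads the messenger RNA, to a large subunit, which forms the peptide bonds. Most of their proteins occur once per ribosome, and the genes that encode them are among the most strongly transcribed in dividing cells. Their messenger RNAs start with a terminal oligopyrimidine tract (TOP), a C followed by a run of C and T. When the growth kinase mTORC1 is inactive, the protein LARP1 binds this start and translation of the messenger stops, so much of the control of ribosomal protein output acts on translation, which arrays of RNA do not measure. In blood cells the family is known for Diamond-Blackfan anaemia, in which loss of 1 copy of a ribosomal protein gene impairs red cell formation.

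Most of the members' listed transcript starts carry this tract, and a few are shown from members with low and high changes after MK-8776, some with the tract at the start and some without. Sequences are from RefSeq (GRCh38.p14), 20 bases before and 10 bases from a listed transcript start, 5′ to 3′ on the gene's strand. Capitals mark the unbroken run of C and T that begins at the listed start, as far as it is printed.
RPS19, chr19:41860235-41860264, plus strand: gcccgggaaaccccgtcgttCCCTTTCCCC
RPL35A, chr3:197950170-197950199, plus strand: ccacgcggcggggcctcgtcCTTCTCTTac
RPL11, chr1:23691786-23691815, plus strand: tcggccggaagctccgctttCTCTTCCTgc
RPS7, chr2:3575240-3575269, plus strand: ttccggtttccgccctcctcCTCgcgctgt
RPS24, chr10:78033843-78033872, plus strand: ttggccggcgaatcgtggttCTCTTTTCCT
RPS26, chr12:56041898-56041927, plus strand: gctgggagacacataacctcgattttcttc
RPL10L, chr14:46651772-46651801, minus strand: gcgcgcaggcgtagttaagagagcgcattt

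RPS19 and RPL35A, 2 of the members with the lowest changes, start with a long run, as does RPS24, whose change was above 0. RPS26, with the highest change, and the testis gene RPL10L start with a G in these windows, and the run of RPS7 is 3 bases long. RPS19 and RPL11 each have another listed start besides the one shown, and at both of these the first base is A, so no tract begins there. A window was found for 42 of the 48 members, 5 of them with over 1 listed start. With the tract taken as C followed by at least 4 bases that are each C or T, 30 of these 42 members (71.4%) had it at a listed start, against 6.09% of the 14250 tested genes with a window. The share was 75% of 24 large-subunit genes and 66.7% of 18 small-subunit genes. Listed starts can lie some bases off the start used in these cells. When the tract could begin within 10 bases of the listed start, 88.1% of the members and 41.1% of the tested genes had it. In the windows from 250 bases before to 50 bases after the start, searched on both strands, CCGGAAG, the core bound by ETS factors such as GABP, was present in 33.3% of the members and 16.6% of the tested genes. CACGTG, the E-box bound by MYC and MAX, was present in 7.14% of the members and 10.8% of the tested genes. Of the other motifs searched, AAGATGGC (YY1) was in 9.52% of the members and 4.73% of the tested genes, GGGCGG (SP1) in 52.4% and 65.4%, and TATAAA, the core promoter box, in 4.76% and 12.3%. The reverse complement of CCGGAAG can run into the pyrimidine tract, and a match says only that the letters are in the window. The 30 members with the tract at a listed start had a median change of -0.1575 (range -0.55 to 0.145). The other 12 had a median of -0.185 (range -0.59 to 0.385). RPS7 and RPS26, the ends of that second range, are among the 37 of 42 members in which a tract begins within 10 bases of the listed start. The 12 are thus not a group without a tract nearby.

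Most array features carry the number of their gene's chromosome in their name, and this held for 17676 of 17684 named genes. Of the members it held for 47 of 48. The feature named RPL21 (TC1000012032.hg.1) carries the number of chromosome 10, whereas RPL21 lies on chromosome 13 (27251558 to 27256568) and has 137 annotated pseudogenes in RefSeq. Its values are given as those of a feature whose source is uncertain. The members had up to that number of pseudogenes each, and how much of a member's signal comes from expressed copies was not tested. As for the labelled cell type, the myeloperoxidase gene MPO, a marker of promyelocytes, measured 14.81 and 15.36 in MK-8776 and 16.09 and 16.27 in DMSO. The 8 measured promyelocyte and granule markers had a median of 7.145 and 7.41 in MK-8776 and 8.3 and 8.355 in DMSO, and the 6 monocyte and macrophage markers 5.745 and 6.055 in MK-8776 and 5.375 and 5.265 in DMSO. Of the promyelocyte markers CTSG and PRTN3 fell, and of the monocyte markers C1QA and CD14 rose. Of 6 lymphoid markers NKG7 rose and CD3E fell, and of 6 erythroid and megakaryocyte markers PPBP rose and ITGA2B fell. Over all genes 2.02% fell and 1.66% rose. Markers of the other lineages ran over a wide range of levels. The mean over the 4 arrays of a lymphoid marker ran from 2.98 (GNLY) to 11.72 (NKG7), with CD79A at 9.65 and CD3E at 7.45. That of a monocyte or macrophage marker ran from 3.26 (MRC1) to 7.44 (C1QA), and that of an erythroid or megakaryocyte marker from 3.89 (ALAS2) to 8.415 (ITGA2B), where the lower quartile of the arrays' values was 3.97. The part of these marker changes in the members' values was not tested.

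Apart from 3 tissue-restricted copies, the members gave strong signals on every array. The other 45 had mean levels of 12.58 (RPL27, a large-subunit protein) to 17.975 (RPL38, a large-subunit protein needed for patterning of the mouse skeleton), where the median of all values was 5.77. The members measured between 16.25 and 16.48 in median on the MK-8776 arrays and between 16.545 and 16.705 on the DMSO arrays. Signals of different features depend on their probes, so the order of the genes by level is not an order of messenger abundance. Scanner files were not used here, so saturation of strong features was not assessed.

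**Figure D1:**
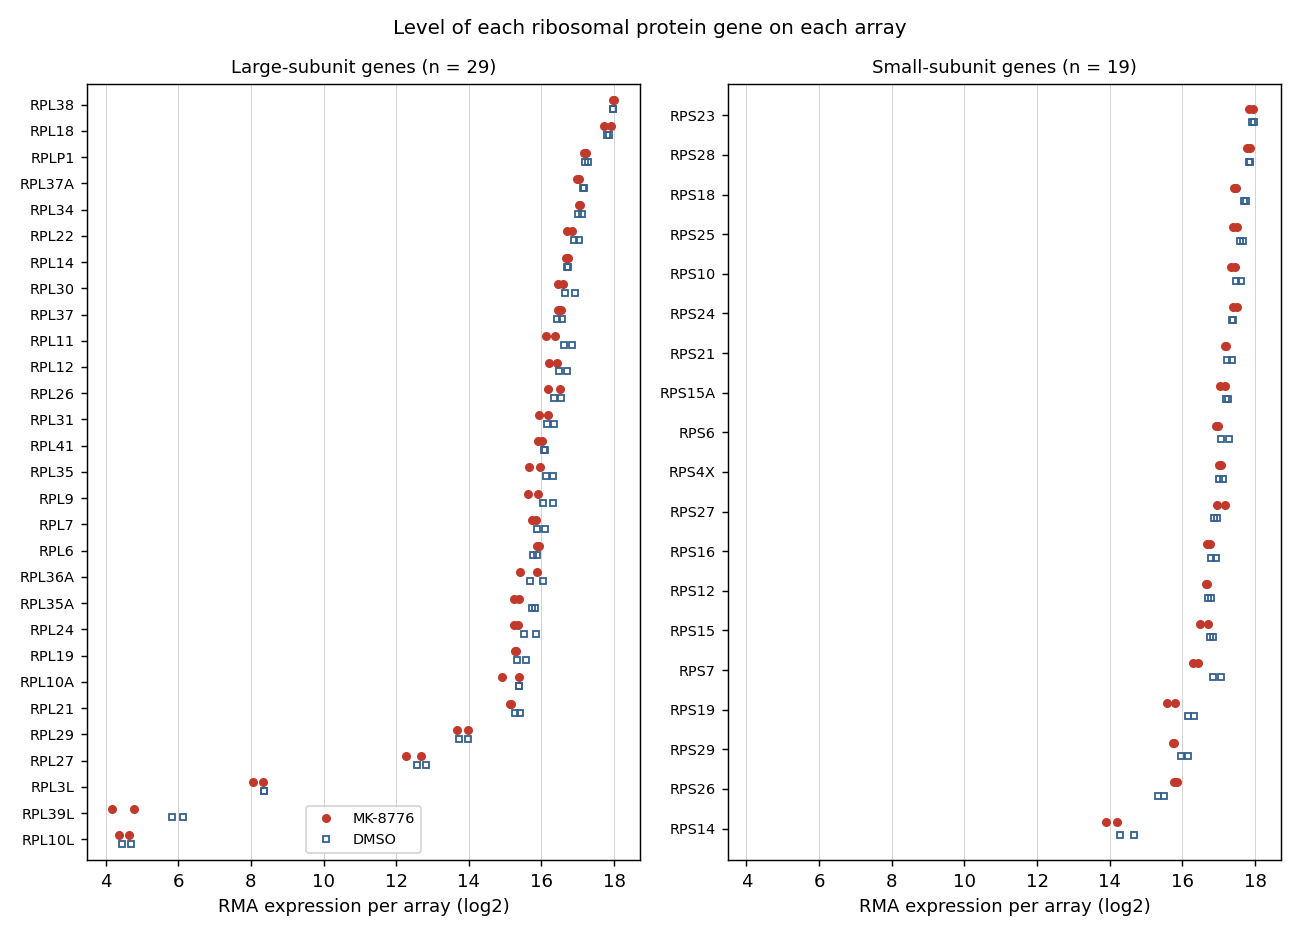
RMA expression (log2, x axis) of each of the 48 members (rows, ordered by mean signal) on each array, with filled circles for the 2 MK-8776 arrays and open squares for the 2 DMSO arrays. Of the members, 45 lie above 12 on every array, whereas RPL3L, RPL39L and RPL10L lie below 9, and RPL39L is the member whose groups stand furthest apart.

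After MK-8776, 1 of the 48 members fell, the paralog gene RPL39L, and 0 rose. That is 2.08% of the members called as falls, against 2.02% of all genes tested, so the share of falls is near the background. Over all genes 1.66% rose and 3.69% were called in either direction. The shifts of the other 47 members were small and mostly downward. Of all 48, 43 had a lower mean in MK-8776 and 5 a higher one, whereas 49.2% of all genes had a lower mean. The median change was -0.1625 with quartiles of -0.26 and -0.04, against a median of 0.005 and quartiles of -0.245 and 0.245 over all genes. In 28 members (58.3%) both MK-8776 arrays lay below both DMSO arrays, against 24.2% of all genes tested. In 1 member, RPS26, both lay above, against 24% of all genes tested. Members share the 4 arrays and are not independent of one another, so these counts have no test.

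A change of this size is close to what separates replicate arrays. MK-8776 replicate 2 lay above MK-8776 replicate 1 in 39 members, and the median gap over all 48 was 0.12. DMSO replicate 2 lay above DMSO replicate 1 in 37 members, and the median gap was 0.135. The 95% interval of a single ubiquitous member reached 0.473 to each side of its change (median over the 45, with no adjustment for the number of genes). That width came mostly from the spread shared over all genes (prior SD 0.23), not from the member's own replicates. At an unadjusted p under 0.05, 4 members were lower and 0 higher in the limma fit, against 10.2% of all genes lower. A fit that lets the variance depend on the level called 5 members as falls, RPL39L, RPS7 (adjusted p = 0.00982), RPS19 (0.0200), RPL35A (0.0362) and RPL11 (0.0420). That is 10.4% of the members against 3.61% of all genes as falls in that fit. Its calls in either direction over all genes numbered 1185, in place of 652. The genes other than members with a mean level of 15 or more, a limit chosen after the values were seen, numbered 124. They had a median change of -0.005, and in 36.3% of them both MK-8776 arrays lay below both DMSO arrays. The 42 members with such a level gave 25 with that separation.

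**Figure D2:**
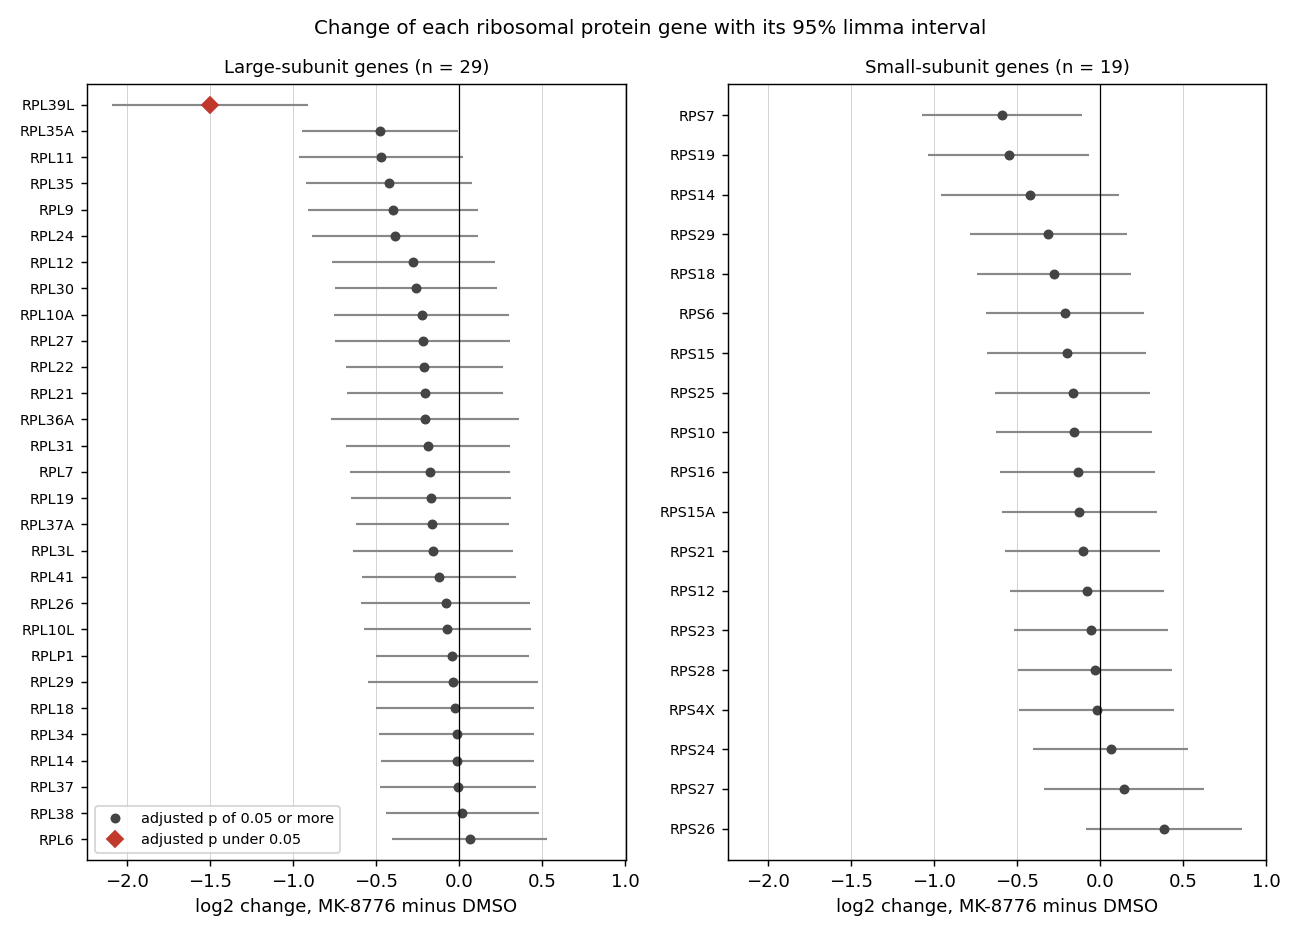
Log2 change, MK-8776 minus DMSO (x axis), of each member (rows), with its 95% interval from the limma fit as a line. RPL39L at -1.5 is drawn as a diamond for an adjusted p under 0.05, and the other 47 members run from -0.59 (RPS7) to 0.385 (RPS26).

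Among the large-subunit genes, the lowest changes of ubiquitous members were in RPL35A, RPL11, RPL35, RPL9 and RPL24, and none of these passed the threshold. RPL35A, a protein needed to mature the large subunit's RNA, measured 15.23 and 15.38 in MK-8776 and 15.73 and 15.83 in DMSO. Both MK-8776 arrays lay below both DMSO arrays, a change of -0.475 (SE 0.21, adjusted p = 0.261, limma). RPL11, which with RPL5 and the smallest ribosomal RNA can bind and block the p53 inhibitor MDM2, measured 16.13 and 16.37 in MK-8776 and 16.61 and 16.83 in DMSO. Its groups did not overlap either, with a change of -0.47 (SE 0.22, adjusted p = 0.289, limma). RPL35, at the mouth of the tunnel through which the new chain leaves, measured 15.66 and 15.95 in MK-8776 and 16.13 and 16.32 in DMSO, a change of -0.42 (adjusted p = 0.354, limma). RPL9 measured 15.64 and 15.91 in MK-8776 and 16.03 and 16.32 in DMSO, a change of -0.40. RPL24, which forms a bridge to the small subunit, measured 15.23 and 15.35 in MK-8776 and 15.51 and 15.84 in DMSO, a change of -0.385. In these 3 genes too the lower DMSO array lay above the higher MK-8776 array.

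At the other end of the large subunit, only RPL6 and RPL38 had a change above 0. RPL6 measured 15.92 and 15.87 in MK-8776 and 15.89 and 15.77 in DMSO, and RPL38 measured 17.96 and 18.01 in MK-8776 and 17.97 and 17.96 in DMSO. The arrays of the groups overlapped in both genes, with changes of 0.065 and 0.02. RPLP1, an acidic protein of the stalk that recruits elongation factors, measured 17.23 and 17.17 in MK-8776 and 17.21 and 17.27 in DMSO, with overlapping groups and a change of -0.04. Of the other 18 ubiquitous large-subunit members, the changes lay between -0.275 (RPL12, near the base of the stalk) and -0.005 (RPL37), and 0 passed.

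Among the small-subunit genes, limma called 0 of 19, and the lowest changes were in RPS7 and RPS19. At an unadjusted p under 0.05, 2 of the 19 were lower and 0 higher, against 10.2% of all genes lower. RPS7 (feature TC0200006536.hg.1, chromosome 2, 3575260 to 3580920), a protein needed to process the small subunit's RNA, measured 16.28 and 16.44 in MK-8776 and 16.85 and 17.05 in DMSO. The groups were separated by more than either replicate gap, and the change was -0.59 (SE 0.21, unadjusted p = 0.0222, adjusted p = 0.176, limma), a fold of 0.664. RPS19 (feature TC1900008164.hg.1, chromosome 19, 41860255 to 41872925), the gene most often mutated in Diamond-Blackfan anaemia, measured 15.59 and 15.79 in MK-8776 and 16.15 and 16.33 in DMSO. It was separated in the same way, with a change of -0.55 (SE 0.21, unadjusted p = 0.0305, adjusted p = 0.209, limma). RPS14, whose loss accounts for the anaemia of a myelodysplastic syndrome with a chromosome 5 deletion, measured 13.90 and 14.21 in MK-8776 and 14.29 and 14.66 in DMSO. Here the gap between the groups was smaller than the gaps between replicates, and the change was -0.42 (SE 0.23, adjusted p = 0.389, limma).

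RPS26 had the highest change of all members. It lines the channel where messenger RNA leaves the small subunit, and it measured 15.77 and 15.84 in MK-8776 and 15.34 and 15.50 in DMSO (feature TC1200007823.hg.1, chromosome 12, 56041918 to 56044697). It was the member for which both MK-8776 arrays lay above both DMSO arrays, with a change of 0.385 (SE 0.21, adjusted p = 0.368, limma) that did not pass. RPS26 has 59 annotated pseudogenes. RPS27, a zinc-binding protein, measured 16.94 and 17.17 in MK-8776 and 16.88 and 16.94 in DMSO, and RPS24 measured 17.38 and 17.50 in MK-8776 and 17.39 and 17.36 in DMSO. The groups touched or overlapped in both, with changes of 0.145 and 0.065. RPS6, the substrate of the S6 kinases that act below mTORC1, measured 16.93 and 16.99 in MK-8776 and 17.06 and 17.28 in DMSO, a change of -0.21 (adjusted p = 0.662, limma). RPS4X, the X-linked copy of its gene pair, measured 17.07 and 17.02 in MK-8776 and 17.12 and 17.01 in DMSO. Its groups overlapped, and the change was -0.02.

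The median changes of the subunits were both below 0 and lay close together. The median change was -0.175 over the 29 large-subunit genes and -0.135 over the 19 small-subunit genes, a difference of -0.04, beside a replicate SD of 0.0345 for that difference. Of the large-subunit genes 27 (93.1%) had a lower MK-8776 mean, and of the small-subunit genes 16 (84.2%) did, against 49.2% of all genes. Both MK-8776 arrays lay below both DMSO arrays in 15 large-subunit genes (51.7%) and in 13 small-subunit genes (68.4%), against 24.2% of all genes. Each array was also described by the median, over the genes of a subunit, of the deviation from the gene's own mean of the 4 arrays. For the large subunit this was -0.175 and -0.035 in MK-8776 and 0.0225 and 0.175 in DMSO. For the small subunit it was -0.1275 and -0.035 in MK-8776 and 0.025 and 0.1275 in DMSO. In both subunits the nearest arrays of the 2 groups lay closer together than the replicates of either group. Without MK-8776 replicate 1 the median was -0.07 for the large and -0.095 for the small subunit, and the difference between them turned to 0.025. Without DMSO replicate 1 the medians were -0.28 and -0.205, and without DMSO replicate 2 they were -0.125 and -0.09. The sign of the difference between the subunits thus rests on MK-8776 replicate 1.

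**Figure D3:**
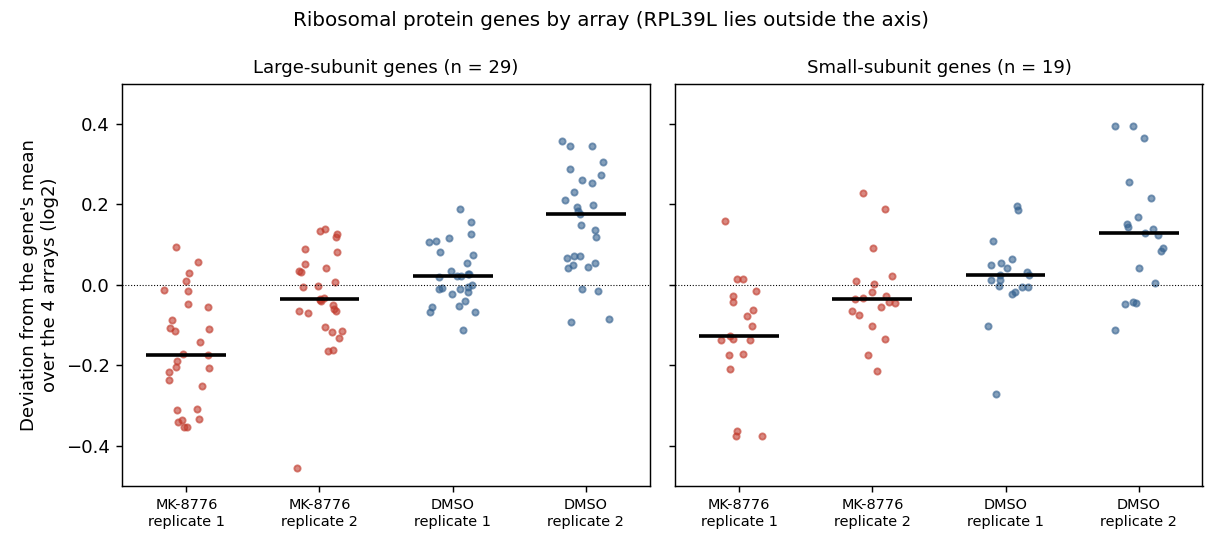
Deviation of each member from its own mean over the 4 arrays (log2, y axis) on each array (x axis), with circles for genes and a bar for the median of the 29 large-subunit (left) or 19 small-subunit genes (right). The medians of both subunits are lowest on MK-8776 replicate 1 and highest on DMSO replicate 2, with MK-8776 replicate 2 and DMSO replicate 1 close together between them.

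The member that passed the test, RPL39L, is 1 of 3 tissue-restricted copies among the members. It arose as a copy of RPL39, which lines the exit tunnel, and is known from testis, where its protein replaces RPL39 in ribosomes of developing sperm in the mouse. RPL39L (feature TC0300013458.hg.1, chromosome 3, 187120948 to 187139496) measured 4.19 and 4.78 in MK-8776 and 6.13 and 5.84 in DMSO. The groups were separated by more than the gap between replicates, and the gene fell by 1.5 on the log2 scale (SE 0.26, adjusted p = 0.0224, limma), a fold of 0.354. The MK-8776 values lay between the lower quartile and the median of all values and the DMSO values just above that median. The change ran from -1.795 to -1.205 when each array was left out in turn and then missed the threshold (adjusted p from 0.0822 without MK-8776 replicate 2 to 0.379 without DMSO replicate 2). It also missed it with a replicate block (adjusted p = 0.0695). RPL3L, the copy of RPL3 used in heart and skeletal muscle, measured 8.07 and 8.33 in MK-8776 and 8.36 and 8.35 in DMSO, a change of -0.155. RPL10L, the copy of the X-linked RPL10 needed in male meiosis in the mouse, measured 4.64 and 4.38 in MK-8776 and 4.70 and 4.46 in DMSO, with overlapping groups and a change of -0.07. RPL39, RPL3 and RPL10 themselves were not analysed here. Without these 3 copies 0 of 45 members passed in limma, and 3 were lower at an unadjusted p under 0.05, against 10.2% of all genes.

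Groups of members by place or disease gave 0 calls each in the limma fit. Of 23 genes listed as mutated in Diamond-Blackfan anaemia 17 were measured, with a median change of -0.185, 14 lower and 3 higher (RPS24, RPS27 and RPS26). At an unadjusted p under 0.05, 3 of the 17 were lower in limma, against 10.2% of all genes. The 6 measured proteins of the small subunit's head and beak, RPS19, RPS29, RPS18, RPS10, RPS16 and RPS12, had changes of -0.55 to -0.08, and in all 6 both MK-8776 arrays lay below both DMSO arrays, a separation that 58.3% of the members and 24.2% of all genes showed. RPS18 measured 17.41 and 17.48 in MK-8776 and 17.69 and 17.75 in DMSO, where the groups stood apart by more than the replicates. The 5 measured proteins of the decoding site and of the channel that messenger RNA threads, RPS14, RPS15, RPS23, RPS28 and RPS26, spread from -0.42 to 0.385. RPS23, at the decoding site itself, measured 17.84 and 17.94 in MK-8776 and 17.93 and 17.96 in DMSO. Its groups overlapped. The 4 measured proteins of the exit tunnel, RPL35, RPL31, RPL19 and RPL26, had changes of -0.42 to -0.08.

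Relatives of the members that the naming rule left out did not pass either. Of 6 measured, FAU, which encodes a small-subunit protein fused to a ubiquitin-like domain, measured 13.19 and 13.47 in MK-8776 and 13.59 and 14.18 in DMSO, a change of -0.555 (adjusted p = 0.292, limma). RPS27L, a p53-induced copy of RPS27, measured 10.72 and 10.66 in MK-8776 and 10.04 and 10.37 in DMSO, a change of 0.485 (adjusted p = 0.276, limma). The groups were separate in both genes, FAU lower and RPS27L higher in MK-8776.

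Other messengers known to start with the same tract were listed too. Of 15 measured genes of this list, mostly translation factors, 1 fell (6.67%, against 2.02% of all genes) and 0 rose. The median change was -0.155, the lower quartile was -0.5125, and 11 were lower (73.3%, against 49.2% of all genes). In 9 (60%) both MK-8776 arrays lay below both DMSO arrays, against 24.2% of all genes, and in 2 both lay above, against 24%. The gene that fell, VIM, encodes the filament protein vimentin. It measured 12.32 and 12.89 in MK-8776 and 13.66 and 13.91 in DMSO, a change of -1.18 (SE 0.25, adjusted p = 0.0434, limma, and 0.0533 with all features tested or 0.0612 with a replicate block). Among the translation factors, EIF4B measured 15.48 and 15.54 in MK-8776 and 16.15 and 16.40 in DMSO, a change of -0.765 that did not pass (adjusted p = 0.0934). EEF1A1, the elongation factor that brings transfer RNA to the ribosome, measured 18.35 and 18.27 in MK-8776 and 18.18 and 18.15 in DMSO, a change of 0.145.

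Among 19 genes of the mTORC1, S6 kinase and LARP1 list, EIF4EBP1 fell (5.26%, against 2.02% of all genes) and 0 rose, with a median of -0.02. EIF4EBP1 encodes a repressor of the cap-binding factor that mTORC1 inactivates. It measured 10.88 and 11.29 in MK-8776 and 12.22 and 12.55 in DMSO, a change of -1.30 (SE 0.24, adjusted p = 0.0272, limma). LARP1 measured 13.03 and 13.40 in MK-8776 and 13.15 and 13.27 in DMSO, with the DMSO arrays inside the range of the MK-8776 arrays. MTOR measured 9.55 and 9.43 in MK-8776 and 8.91 and 8.85 in DMSO, separate groups with a change of 0.61 that did not pass (adjusted p = 0.153). These are RNA levels and say nothing of kinase activity. Of 13 measured genes for chaperones and importers of ribosomal proteins, limma called 0, and the median change was -0.42. At an unadjusted p under 0.05, 6 of the 13 were lower and 0 higher in limma, against 10.2% of all genes lower. IPO5, an importin that carries ribosomal proteins into the nucleus, measured 9.43 and 9.64 in MK-8776 and 10.09 and 10.51 in DMSO, a change of -0.765 (adjusted p = 0.121, limma). PDCD2L, a relative of PDCD2, which escorts the small-subunit protein RPS2, measured 7.43 and 8.16 in MK-8776 and 9.01 and 8.59 in DMSO, a change of -1.005 (adjusted p = 0.106). In both genes the MK-8776 arrays lay below the DMSO arrays.

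RPL11 acts in a checkpoint through MDM2, and MYC drives transcription of ribosomal protein genes, so 6 genes of this arm were also listed, of which 4 were measured. MYC measured 10.09 and 10.99 in MK-8776 and 12.98 and 13.51 in DMSO, and fell by 2.705 (SE 0.33, adjusted p = 0.00686, limma). CDKN1A, the p53 target that encodes the cell cycle inhibitor p21, measured 6.09 and 6.80 in MK-8776 and 4.46 and 4.85 in DMSO, and rose by 1.79 (SE 0.28, adjusted p = 0.0164, limma). Both stood apart from DMSO by more than any gap between replicates. MDM2 and MDM4 did not pass, with changes of 0.22 and 0.02. VIM, EIF4EBP1, MYC and CDKN1A each kept their direction but missed the threshold when any 1 array was left out.

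The proteins of the mitochondrial ribosome, a separate machine that translates the mitochondrial genome, are the set most like the members. Of 74 measured genes 0 rose and 0 fell in limma, with 17 lower and 3 higher at an unadjusted p under 0.05. At that p, 1808 (10.2%) of all 17687 genes were lower and 1523 higher. The median change of the 74 was -0.1325, near that of the cytosolic members, with quartiles of -0.51 and 0.10. In 33 of them (44.6%) both MK-8776 arrays lay below both DMSO arrays, against 24.2% of all genes. In 13 both lay above, against 24% of all genes. The changes ran from -0.945 (MRPL23), with MRPS12 next at -0.915, to 0.73 (MRPL52). The quartiles of the 48 members, -0.26 and -0.04, lay closer together than those of the mitochondrial set, and a difference between the 2 sets was not tested. The sets also differed in signal, with a median level of 16.491 for the members and 9.9312 for the mitochondrial set. The 124 other genes with a mean level of 15 or more had quartiles of -0.2038 and 0.1862.

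**Figure D4:**
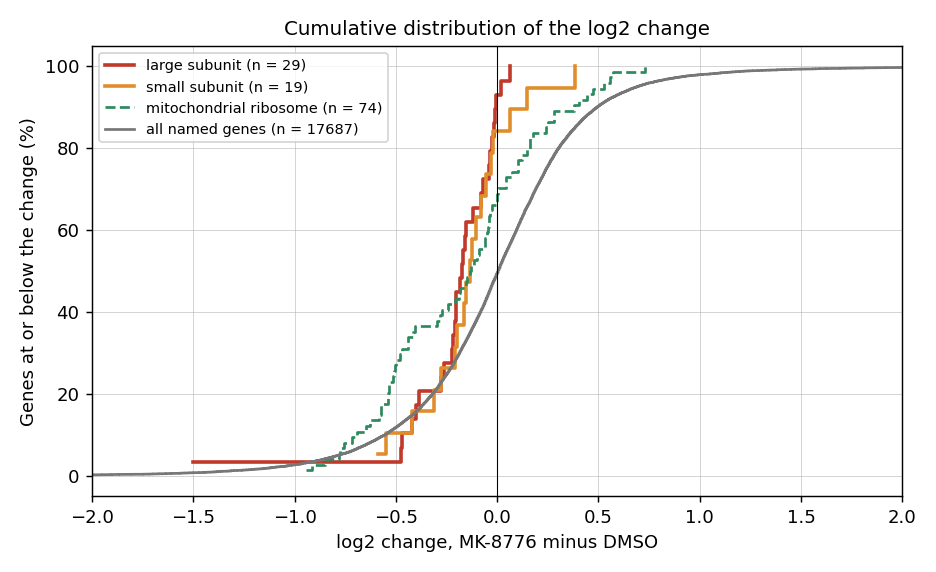
Percentage of genes at or below a given log2 change (y axis) against the change, MK-8776 minus DMSO (x axis, drawn from -2 to 2), for 29 large-subunit, 19 small-subunit, 74 mitochondrial ribosomal protein genes and all 17687 genes. Both cytosolic curves climb steeply just below 0, while those of the mitochondrial ribosome and of all genes are flatter.

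Signal, pseudogenes and gene length were set beside the change. Over the 45 ubiquitous members, which share the same 4 arrays, the signed change had a Pearson r of 0.256 and a Spearman rho of 0.406 with the mean signal. Stronger features thus tended to have less negative or more positive changes. The number of annotated pseudogenes gave r = 0.140 and rho = 0.0851, and gene length gave r = -0.0463 and rho = -0.0915. These are descriptions across genes, which are not independent replicates.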

How the data were processed

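Total RNA of 4 samples was measured on Affymetrix arrays. The deposited values are log2 expression, 1 per feature and array, made by the authors with RMA on build hg38, per the submitters' processing notes. RMA's settings were not stated. The range of the values shows a log scale, read here as log2. The number of arrays limits the precision.

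Of 21448 features, 17709 had exactly 1 symbol in the platform annotation, 0 had several and 3739 had none. Symbols were matched by gene number to RefSeq (GRCh38.p14), and of several features for a gene the one with the highest mean was kept, which left 17687 genes. All were fitted, with no filter, by limma 3.58.1 (R 4.3.3; lmFit, eBayes). Tests of MK-8776 minus DMSO were two-sided, and p-values were adjusted by Benjamini and Hochberg's method over all genes. The fit had 2 residual and 6.298 prior degrees of freedom per gene, and was tested on simulated data. With 2 arrays in each group, the smallest p of an exact permutation test is 0.333.

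The members, lists and rules were chosen with earlier results of these data known. Named are members past the threshold, the 8 lowest and the highest changes (5 were above 0), the strongest and weakest member, members with set roles, and leading genes of each list. RPL12, RPL21, RPL24, RPL27, RPL37, RPS18, RPS23, EIF4B, EEF1A1, LARP1, MTOR, MDM2, MDM4, MRPL52 and single markers were named after their values were seen. Alternatives were quantile normalization, median centring, a level filter, a variance trend (plain or robust), a replicate block, use of all features, the weakest feature of a member, leaving out each array, and leaving out the 3 tissue-restricted copies.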

Additional observations from a re-analysis of the deposited data

How the results depend on the processing

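The count of members called, 1 in the limma fit, was 5 with a variance trend and 5 with the trend estimated robustly, and 0 with only features above the median level (which leaves out RPL39L), 0 with a replicate block, 0 without RPL3L, RPL10L and RPL39L, and 0 when any array was left out. At an unadjusted p under 0.05 limma gave 14 of 48 members with either trend, 3 of 46 above the median level, 5 of 48 with the block and 3 of 45 without the copies. The share of all genes at that p was 20% with either trend, 29.7% above the median level and 20% with the block. It was 18.8% in the main fit, which also served without the copies. Over all genes the calls were 652, against 1185 with the trend, 1162 with the robust trend, 309 with the block and 0 to 34 without an array. When each array was left out, the median change ran from -0.28 to -0.07 for the large subunit, from -0.205 to -0.09 for the small subunit, and from -0.075 to 0.025 for their difference. Members with a lower MK-8776 mean then numbered 37 to 40, and those with both groups apart and MK-8776 lower 31 to 37 (64.6% to 77.1%). With 1 array in a group such separation is easier, and 36.3% to 36.8% of all genes then showed it. Quantile normalization gave 40 and 24 members in place of 43 and 28, with medians of -0.1512 and -0.08875. No member had over 1 feature, so the choice between features changed nothing. Leaving out RPL21, an alternative added after seeing the data, moved the large-subunit median to -0.1725. The labels do not say that replicate numbers mark shared cultures or days. The deviations of same-numbered arrays correlated at 0.139 over all genes and 0.298 over the members, and with 2 pairs this does not settle a pairing. Across the single genes named, 23 values under an alternative no longer passed the threshold, all in the same direction, and 8 newly passed, all for RPS7, RPS19, RPL35A and RPL11 with the trend. The causes of these shifts were not tested.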

Other observations

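The genes that release, rescue or store stalled and idle ribosomes gave 0 calls of 22 measured in limma, with a median change of -0.0325. At an unadjusted p under 0.05, 1 of the 22 was lower and 4 higher, where of all 17687 genes 1808 were lower and 1523 higher. The 2 largest changes were opposite in sign. TRIP4, a subunit of the complex that splits collided ribosomes, measured 9.79 and 9.64 in MK-8776 and 8.93 and 8.79 in DMSO, a change of 0.855 (adjusted p = 0.0656, limma). ABCE1, the enzyme that splits ribosomes after termination, measured 12.48 and 12.62 in MK-8776 and 13.39 and 13.24 in DMSO, a change of -0.765 (adjusted p = 0.0905, limma). In both genes the groups were separate.

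Features named for read-through transcripts share sequence with members or their relatives and were not counted among them. RPS10-NUDT3 measured 13.13 and 13.15 in MK-8776 and 13.45 and 13.53 in DMSO, a change of -0.35 (adjusted p = 0.411, limma), where RPS10 itself changed by -0.155. RPL36A-HNRNPH2 and RPL17-C18orf32 had changes of -0.095 and -0.17, and the RPL36A feature changed by -0.205.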
